A study of Homo sapiens with 12 samples.

Results

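The HOX genes were taken as all symbols that read HOXA, HOXB, HOXC or HOXD followed by a number from 1 to 13 and nothing else. This rule, which used no measured value, found 39 genes in each of the 2 count tables, out of 28008 genes in the table of the MUC1-C silencing experiment and 25435 in that of the MUC1-C overexpression experiment. The HOXA cluster held 11 members over 107.1 kb (chr7:27092993-27200091), HOXB 10 over 200.2 kb (chr17:48528526-48728750), HOXC 9 over 117.2 kb (chr12:53938831-54056030) and HOXD 9 over 103.4 kb (chr2:176087487-176190907), all in RefSeq coordinates of GRCh38.p14.

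HOX genes encode homeodomain transcription factors that give cells of the embryo their identity along the head-to-tail axis. They lie in 4 clusters, and the number of a gene is its place in the cluster, so that genes with low numbers (1 to 3, anterior) act towards the head, those with numbers 4 to 8 (central) in the trunk, and those with high numbers (9 to 13, posterior) in the tail, limbs and urogenital tract. The prostate arises from a posterior part of the embryo, and HOXB13 is the HOX gene best known there, as a factor of the luminal lineage that shares binding sites with the androgen receptor. Trithorax proteins keep HOX genes active and Polycomb proteins keep them silent.

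The series holds RNA-Seq of prostate cancer lines in which MUC1-C, the transmembrane C-terminal subunit of the mucin MUC1, was lowered or raised, to ask which genes follow it. LNCaP is an androgen-dependent prostate cancer line, and LNCaP-ER was selected from it by growth in rising enzalutamide (ENZ), an androgen receptor antagonist. In the silencing experiment, all 6 libraries were from LNCaP-ER cells carrying tet-MUC1shRNA, a doxycycline-inducible short hairpin against MUC1 in a puromycin-selected lentiviral vector, and the groups were vehicle (0.1% DMSO, n = 3) and 500 ng/ml doxycycline (DOX) for 7 days (n = 3). In the overexpression experiment, the groups were LNCaP (n = 3), labelled wild-type but named vector in the table, and LNCaP MUC1-C OE (n = 3), treated as tetMUC1-C in the labels. Titles of the latter read shMUC1-C OE, while their MUC1 counts, given below, were above those of LNCaP. Replicates came from cells cultured in triplicate in each case, and nothing says how many clones or independent selections they stand for, so the p-values below measure only the spread between these libraries. No parental LNCaP library was made together with the LNCaP-ER libraries, and no vehicle group without the hairpin or with DOX alone was analysed here.

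Total counts ranged from 28045894 to 45807989 in the silencing experiment, 18017941 to 19208944 in LNCaP and 13806856 to 17583673 in LNCaP MUC1-C OE. MUC1 itself was counted 26, 10 and 13 times in the vehicle libraries and 3, 42 and 8 times in those labelled DOX, so DOX replicate 2 went against its label, and the group is called by its label below. DOX replicate 2 also stood apart in its silent genes: 11.2% of its genes were at 0 counts, against 27.95% to 38.1% in the other libraries of that table. It was the library of that table in which all 39 HOX genes had a count, where the others had 23 to 28, so results are also given without it. In the overexpression experiment MUC1 had 30, 25 and 31 counts in LNCaP and 9168, 9959 and 12622 in LNCaP MUC1-C OE. Markers of the prostate lumen went against the LNCaP label in that table: 11 of them summed to 5532 to 5948 CPM (counts per 1000000 of the library total) in LNCaP-ER vehicle, 387 to 404 in LNCaP and 73.1 to 83.3 in LNCaP MUC1-C OE, where KLK3, the gene of prostate-specific antigen, and FOLH1 were at 0 counts. VIM, a mesenchymal marker, averaged 5.17 CPM in LNCaP-ER vehicle and 478 in LNCaP. The part of these markers in the HOX levels below was not tested, and in such bulk RNA fewer cells of a type and less RNA per cell cannot be told apart. In GENCODE, 25 of the 39 members share exonic bases with another gene, 18 on the same strand and 19 on the opposite one, and since it is not stated whether counting used strand, counts of such members are uncertain in the shared part.

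In LNCaP-ER cells HOX expression was mostly that of the posterior gene HOXB13. HOXB13 gave 275, 255 and 231 CPM in the 3 vehicle libraries and 263, 275 and 267 CPM in those labelled DOX, which was 79.5% to 80.4% and 73.7% to 77.2% of all HOX counts. To compare genes with each other, counts were divided by the gene length implied by the deposited TPM values and scaled to sum to 1000000 over 16976 protein-coding genes. On this length-scaled level HOXB13 reached 231 ± 24.8 (SD, n = 3) in vehicle, followed by HOXC6 at 22.03 ± 5.19, HOXC13 at 14.04 ± 2.64, HOXA10 at 10.3 ± 1.65 and HOXC12 at 7.89 ± 0.994. The ranges of HOXB13 and HOXC6 over the 3 vehicle libraries did not overlap, nor did those of HOXC6 and HOXC13 or of HOXA10 and HOXC12, while HOXC13 and HOXA10 overlapped. HOXA6, HOXA5, HOXC4 and HOXB9 came next, at 6.13 ± 1.16, 5.68 ± 1.099, 5.35 ± 2.58 and 4.61 ± 1.25, each overlapping its neighbour in the order. Of the 39 members, 13 had a mean of at least 1 CPM in vehicle: 4 of HOXA, 2 of HOXB, 7 of HOXC and 0 of HOXD.

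**Figure D1:**
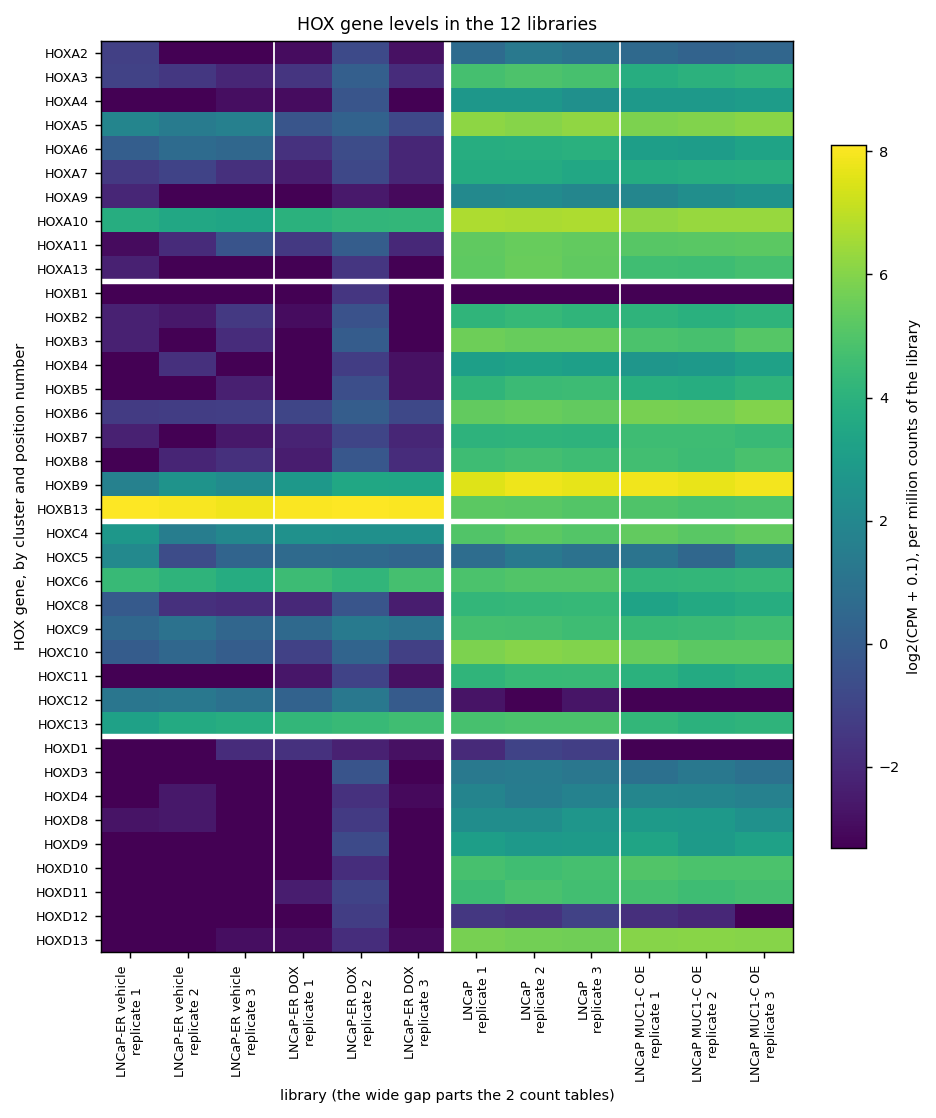
Level of 38 of the 39 HOX genes (rows, by cluster and position number) in each of the 12 libraries (columns, by group), as log2(CPM + 0.1) on library totals. HOXB13 is the brightest row in the 6 LNCaP-ER libraries, the HOXD block is dark there except in DOX replicate 2, and 34 of the 38 rows average at least 1 CPM in LNCaP and in LNCaP MUC1-C OE.

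The HOXB cluster was split around HOXB13. HOXB13 lies 98.4 kb from HOXB9, the next HOX gene of its cluster (RefSeq, GRCh38.p14), and the 9 other HOXB genes summed to 5.29 ± 1.38 CPM in vehicle, most of it HOXB9 with 3.17, 5.80 and 4.41 CPM. HOXB1, the most anterior HOXB gene, was at 0 counts in all 3 vehicle libraries, which allows up to 3 counts in each. PRAC1, a gene between HOXB9 and HOXB13 that is known for its expression in prostate and colorectum, gave 41.8, 52.0 and 54.7 CPM in vehicle.

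HOXC was the cluster with the most members at 1 CPM or more in LNCaP-ER cells. HOXC6, which has been used as a marker transcript in prostate cancer, gave 20.9, 17.0 and 13.6 CPM in vehicle, and HOXC13, a factor of hair and nail development, gave 9.12, 12.5 and 13.9 CPM. HOXC12 gave 2.15, 2.31 and 1.80 CPM, whereas its neighbour HOXC11 was at 0 counts in all 3. HOXC4, HOXC5 and HOXC6 share a transcript start at position 54016888 of chromosome 12 in RefSeq (GRCh38.p14), so reads of their common first exon could be given to any of them, and their levels are uncertain to that extent. Relative to their means, HOXC4 and HOXC5 also varied more between the vehicle libraries than the other HOXC genes at 1 CPM or more, with 6.56, 2.74 and 3.76 and 4.09, 0.521 and 1.19 CPM. HOXC8 gave 0.834, 0.196 and 0.169 CPM, HOXC9 1.32, 1.89 and 1.25 CPM and HOXC10 0.915, 1.30 and 0.949 CPM.

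The HOXD cluster was near silence in LNCaP-ER vehicle. Its 9 genes, which pattern digits, limbs and the genital bud in the embryo, summed to 0.129 ± 0.0748 CPM, 8 of 9 had at most 3 counts in every vehicle library and 5 were at 0 in all 3. The ninth, HOXD1, had 0, 0 and 5 counts. In DOX replicate 2 the HOXD genes had between 3 and 19 counts each, while in DOX replicates 1 and 3 the highest count of any HOXD gene was 7. HOXD13 had 0, 0 and 1 counts in vehicle and 1, 5 and 1 in the libraries labelled DOX. The rise of low counts in DOX replicate 2 extended to HOXA13 (7 counts, against 0 and 0 in the other libraries labelled DOX) and HOXB3 (25 counts, against 0 and 0).

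The libraries labelled LNCaP had a broad HOX pattern that covered all 4 clusters. Summed HOX expression was 1081 to 1151 CPM, against 290.0 to 345 CPM in LNCaP-ER vehicle, and HOXB13 made up 2.95% to 3.50% of HOX counts. On the length-scaled level HOXB9 was first at 196 ± 17.3, then HOXA5 at 118 ± 7.28, HOXC10 at 84.1 ± 5.03 and HOXA10 at 81.6 ± 2.13, where only HOXC10 and HOXA10 overlapped among these neighbours. HOXB6 at 70.0 ± 1.55, HOXA6 at 64.5 ± 3.02, HOXD13 at 58.1 ± 2.52 and HOXD11 at 49.7 ± 4.66 followed without overlap between neighbours. HOXB13 was in place 20 of 39, at 29.7 ± 2.24. These levels used the gene lengths implied in the silencing experiment, as TPM values were available for that experiment only. Whether the same lengths hold here was not tested. Of the 39 members, 35 had a mean of at least 1 CPM, and those below were HOXB1 (0 counts in all 3), HOXC12 (1, 0 and 1 counts), HOXD1 (3, 7 and 6) and HOXD12 (5, 4 and 7).

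**Figure D2:**
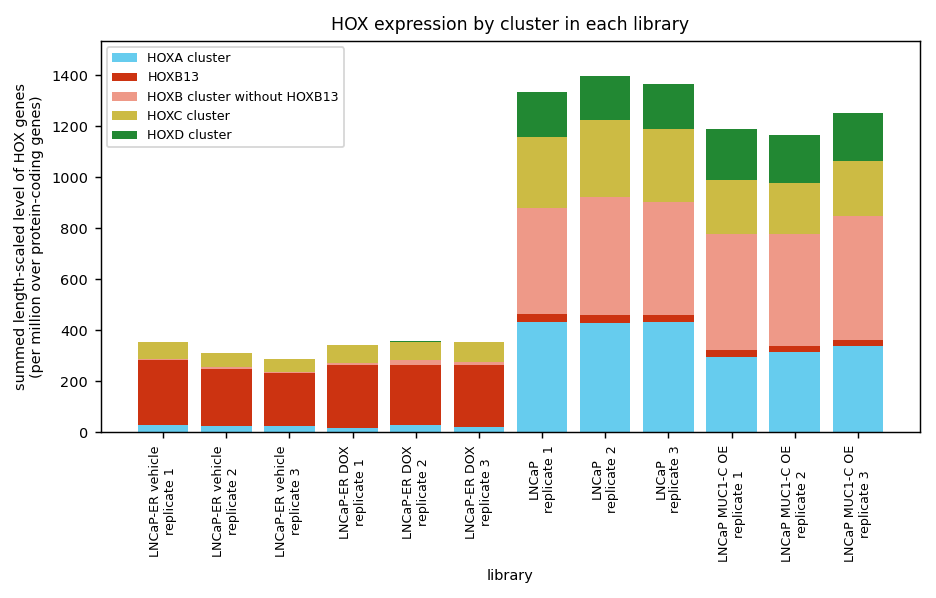
Summed length-scaled level of the HOX genes (y axis, summing to 1000000 over protein-coding genes) in each of the 12 libraries (x axis), stacked by HOXA cluster, HOXB13, the other 9 HOXB genes, HOXC cluster and HOXD cluster. HOXB13 fills most of each LNCaP-ER bar, and the LNCaP and LNCaP MUC1-C OE bars hold all 4 clusters with little HOXB13.

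LNCaP MUC1-C OE libraries held 966 to 1046 CPM of HOX counts, 2.84% to 3.12% of it HOXB13, with 35 members again at a mean of at least 1 CPM. On the length-scaled level HOXB9 led at 210.4 ± 9.69, then HOXA5 at 101.3 ± 8.21, HOXB6 at 89.3 ± 6.63 and HOXD13 at 71.5 ± 1.32, and of these neighbours HOXA5 and HOXB6 overlapped.

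The 2 tables were made separately, so levels across them are set side by side with no test. Of the 36 members with a mean of at least 1 CPM in LNCaP-ER vehicle or LNCaP, 33 were higher in every LNCaP library than in every vehicle library, where 51.3% of all 13594 genes at that level were, and 2 were lower in every LNCaP library, where 36.1% of all genes were. The 2 that were lower in LNCaP were HOXB13, by 7.14-fold on mean CPM, and HOXC12, at least 12.9-fold against the 3-count floor of each LNCaP library. HOXC5 overlapped. Among members with at most 3 counts in every vehicle library, HOXD13 was at least 551-fold higher in LNCaP and HOXD10 at least 278-fold. HOXD11 followed at 272-fold or more, HOXB5 at 223-fold or more and HOXC11 at 214-fold or more. HOXA13, with 4, 0 and 0 counts in vehicle, gave 38.5, 45.1 and 40.3 CPM in LNCaP. PRAC1, the neighbour of HOXB13, gave 1.197, 0.777 and 0.657 CPM in LNCaP. Cell line, table and marker content all differ between these groups, and their parts in the HOX difference cannot be told apart.

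HOXD11 and HOXD13 had 0 to 1 count in each vehicle library and 442, 507 and 456 (HOXD11) and 1031, 920 and 907 (HOXD13) counts in the LNCaP libraries, and the 250 bases before their transcript starts are shown because these 2 genes were at the floor in one line and strongly counted in the other. The reference bases are from RefSeq (GRCh38.p14), in lower case with each CG dinucleotide in capitals. The HOXD13 window lies within the annotated span of the gene (chr2:176087487-176095944), which begins further upstream.
HOXD11, chr2:176107030-176107279, plus strand: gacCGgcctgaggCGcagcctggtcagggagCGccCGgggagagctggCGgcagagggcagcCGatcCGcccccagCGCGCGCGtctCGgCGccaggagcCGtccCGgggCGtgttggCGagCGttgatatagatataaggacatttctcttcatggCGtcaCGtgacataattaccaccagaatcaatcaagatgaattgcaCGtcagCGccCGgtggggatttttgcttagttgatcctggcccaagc
HOXD13, chr2:176092471-176092720, plus strand: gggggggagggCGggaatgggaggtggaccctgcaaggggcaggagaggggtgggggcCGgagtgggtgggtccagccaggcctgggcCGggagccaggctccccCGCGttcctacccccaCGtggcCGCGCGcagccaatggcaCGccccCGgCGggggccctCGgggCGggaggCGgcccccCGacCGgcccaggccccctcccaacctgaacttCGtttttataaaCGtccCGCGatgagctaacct
They hold 23 and 21 CG dinucleotides, where the median over 34943 annotated starts of all genes was 11. The table of starts covered 20 of the 39 members with 26 different windows, of which 18 had more CG than that median. TGATNNAT, the letters that HOX and PBX proteins bind together, was searched on both strands and occurred in 3 of the 26 HOX windows and in 6.5% of all windows, and HOXD11 was 1 of the 3.

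In the libraries labelled DOX, LNCaP-ER cells had lower HOXA5 and HOXA6 and higher HOXA10, HOXB9 and HOXC13, while HOXB13 was not called. Of the 39 members, 14 passed edgeR's filter on low counts and could be tested, and the other 25, including all 9 HOXD genes, could not. By position, 1 anterior, 6 central and 7 posterior members were tested. Of the 14, 5 were called by edgeR's quasi-likelihood test at an adjusted p under 0.05, 3 higher and 2 lower, where 27.3% of all 14683 genes tested were called. The median log2 fold change was 0.25 over the 14 members and -0.02 over all genes. Both lower calls moved by at least 1 on the log2 scale, where 3.7% of all genes were called and fell that far, as did 1 of the 3 higher calls, where 3.02% were called and rose that far (6.73% in either direction). The 2 groups did not overlap in 4 members that were higher and 2 that were lower in the libraries labelled DOX, where 21.2% and 23% of all genes did not overlap in that direction. Both lower calls were in central genes and all 3 higher calls in posterior genes. This split did not hold without DOX replicate 2. The central gene HOXC6 was then called higher and the posterior genes HOXC10 and HOXC12 lower. Whether calls differ by position was not tested. Of all genes tested, 12.8% were called higher and 14.5% lower. Values from here on are CPM on library sizes scaled by TMM ("scaled CPM") unless library totals are named.

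HOXA5 and HOXA6 are neighbouring central genes, of which HOXA5 is known for its part in lung and gut development. HOXA5 gave 3.58, 2.72 and 3.19 scaled CPM in the vehicle libraries and 0.697, 1.04 and 0.474 in the libraries labelled DOX, with no overlap between the groups (log2 fold change -2.11, SE 0.38, adjusted p = 0.00515), which was 4.33-fold lower. HOXA6 gave 0.956, 1.56 and 1.38 scaled CPM in the vehicle libraries and 0.212, 0.505 and 0.129 in the libraries labelled DOX, again without overlap and 4.69-fold lower (log2 fold change -2.23, SE 0.60, adjusted p = 0.0253). Both fell, HOXA6 at low counts: its libraries labelled DOX held 7, 15 and 6 counts. On the opposite strand, HOXA-AS3 shares 39.3% of the exonic bases of HOXA6 in GENCODE and none of HOXA5, and reads of the 2 strands cannot be told apart where the counting ignored strand, which is not stated. HOXA-AS3 was at 0 to 15 counts in the vehicle libraries and was not tested. In the libraries labelled DOX it gave 0.0608, 0.998 and 0 CPM on library totals, where HOXA6 gave 0.213, 0.535 and 0.131.

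HOXA10, HOXB9 and HOXC13 are posterior genes, and all 3 rose. HOXA10, which patterns the uterus and lower trunk, gave 13.5, 11.9 and 11.0 scaled CPM in the vehicle libraries and 15.7, 17.4 and 18.4 in the libraries labelled DOX (log2 fold change 0.50, SE 0.14, adjusted p = 0.0258). HOXB9 gave 3.13, 6.05 and 4.61 scaled CPM in the vehicle libraries and 6.60, 10.6 and 10.6 in the libraries labelled DOX (log2 fold change 1.02, SE 0.28, adjusted p = 0.0278). HOXC13 gave 9.001, 13.1 and 14.5 scaled CPM in the vehicle libraries and 18.9, 19.7 and 23.9 in the libraries labelled DOX (log2 fold change 0.78, SE 0.19, adjusted p = 0.0171). In each of these genes the lowest library labelled DOX was above the highest vehicle library. The gap was narrow in HOXB9, between 6.05 in the highest vehicle library and 6.60 in the lowest library labelled DOX.

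The 250 bases before the starts of HOXA6 and HOXA10 are shown because the 2 genes lie in the same cluster and moved in opposite directions, again from RefSeq (GRCh38.p14) with CG in capitals. HOXA10 has 2 annotated starts, and the window shown is that of the inner one, which lies within the gene's span of chr7:27170605-27179861.
HOXA6, chr7:27147775-27148024, minus strand: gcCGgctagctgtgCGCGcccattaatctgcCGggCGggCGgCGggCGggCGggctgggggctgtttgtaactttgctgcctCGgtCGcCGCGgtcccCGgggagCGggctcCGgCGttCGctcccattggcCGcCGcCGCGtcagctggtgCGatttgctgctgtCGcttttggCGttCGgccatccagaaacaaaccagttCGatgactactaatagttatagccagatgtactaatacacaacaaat
HOXA10, chr7:27174321-27174570, minus strand: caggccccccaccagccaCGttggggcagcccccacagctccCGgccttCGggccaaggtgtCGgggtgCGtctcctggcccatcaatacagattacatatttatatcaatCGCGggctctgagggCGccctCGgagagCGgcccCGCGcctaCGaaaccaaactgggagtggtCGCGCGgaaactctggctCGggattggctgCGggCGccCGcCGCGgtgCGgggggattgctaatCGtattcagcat
The HOXA6 window holds 27 CG dinucleotides and that of HOXA10 holds 24, and neither holds TGATNNAT.

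The other 9 tested members were not called. HOXB13, the most abundant, gave 271, 266 and 241 scaled CPM in the vehicle libraries and 262, 259.7 and 263 in the libraries labelled DOX (log2 fold change 0.01, SE 0.09, adjusted p = 0.933), with a 95% interval of the difference of -0.19 to 0.21 on the log2 scale. On the filtered deposited TPM, which moved the median of all genes to 0.45, HOXB13 was called higher at 0.56 (limma adjusted p = 0.0268), as was HOXC6 at 0.77 (limma adjusted p = 0.00276). HOXC6 gave 20.6, 17.7 and 14.2 against 22.9, 17.0 and 26.1 scaled CPM in the same order (log2 fold change 0.33, interval -0.10 to 0.76). HOXB6, another central gene, gave 0.292, 0.3398 and 0.355 against 0.424, 0.875 and 0.452 scaled CPM without overlap, but at 10 to 26 counts a library the difference did not pass the test (log2 fold change 0.81, adjusted p = 0.305).

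The groups overlapped for the HOXC genes that follow. HOXC4 gave 6.48, 2.85 and 3.94 against 5.30, 4.88 and 5.19 scaled CPM (log2 fold change 0.21, adjusted p = 0.637) and HOXC5, its partner in the shared first exon, gave 4.04, 0.544 and 1.24 against 1.45, 1.31 and 1.23 scaled CPM (log2 fold change -0.56, adjusted p = 0.549). HOXC9 and HOXC10 act in thoracic and lumbar patterning. HOXC9 gave 1.30, 1.97 and 1.31 against 1.39, 2.29 and 1.94 scaled CPM (log2 fold change 0.29, adjusted p = 0.584) and HOXC10 gave 0.903, 1.36 and 0.994 against 0.363, 1.11 and 0.345 scaled CPM (log2 fold change -0.85, adjusted p = 0.302). HOXC12 gave 2.12, 2.41 and 1.88 against 1.09, 2.19 and 0.862 scaled CPM (log2 fold change -0.64, adjusted p = 0.282). In HOXC10 and HOXC12 it was DOX replicate 2 that lay among the vehicle libraries.

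**Figure D3:**
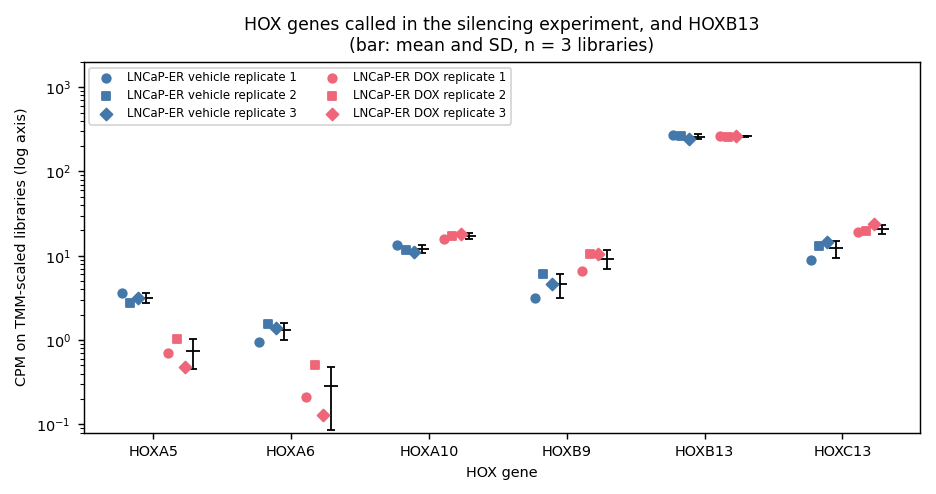
Scaled CPM (log axis) of the 5 HOX genes called in the silencing experiment and of HOXB13, for each of the 3 vehicle and 3 DOX libraries, with the mean and SD of each group. HOXA5 and HOXA6 are lower and HOXA10, HOXB9 and HOXC13 higher in all 3 libraries labelled DOX, and the 6 HOXB13 values lie between 241 and 271.

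Without DOX replicate 2, 8 members were called, 4 higher and 4 lower. These were the 5 above, with log2 fold changes of -2.41 for HOXA5, -2.90 for HOXA6, 0.52 for HOXA10, 0.94 for HOXB9 and 0.85 for HOXC13, and HOXC6 (0.52), HOXC10 (-1.57) and HOXC12 (-1.104) in addition. Of the 5 calls, that of HOXA5 held in all 6 fits that left out 1 library (edgeR adjusted p 0.00121 to 0.0302), but on the deposited log2(TPM + 1) without a filter HOXA5 was at -0.68 and not called (limma adjusted p = 0.0970), and neither were HOXA6 and HOXA10. HOXA6 lost its call without vehicle replicate 2 or 3 or DOX replicate 1 or 3 (adjusted p 0.00430 to 0.107 over the 6 fits), HOXA10 without vehicle replicate 2 or 3 or DOX replicate 3 (0.0234 to 0.105), HOXB9 without vehicle replicate 1 or 3 or DOX replicate 3 (0.0222 to 0.110) and HOXC13 without vehicle replicate 2 or DOX replicate 3 (0.0138 to 0.0782). The number called was 4 without vehicle replicate 1, 2 without vehicle replicate 2, 2 without vehicle replicate 3, 4 without DOX replicate 1 and 1 without DOX replicate 3.

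With MUC1-C overexpression HOX genes were called about as often as all genes, mostly at changes of less than 1.5-fold. The direction of the called members varied between clusters, which was not tested and depended on the scaling. Of the 39 members, 35 passed the filter, all but HOXB1, HOXC12, HOXD1 and HOXD12. The edgeR test called 23, 11 higher and 12 lower in LNCaP MUC1-C OE, where 67.3% of all 13836 genes tested were called, so the share of members called was near that of all genes. The median log2 fold change was -0.03 over the 35 members and -0.01 over all genes, and 1 member was called and moved by at least 1 on the log2 scale, where 13.9% of all genes did (10.5% lower and 3.36% higher). In 9 members every LNCaP MUC1-C OE library was above every LNCaP library and in 11 below, where 34.4% and 35.9% of all genes were. The higher and lower calls were 2 and 5 in HOXA, 4 and 2 in HOXB, 1 and 5 in HOXC, and 4 and 0 in HOXD. Of all genes tested, 33.2% were called higher and 34.1% lower.

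In HOXA, 5 of 11 members fell and 2 rose. HOXA3, a gene of the pharyngeal arches, gave 25.4, 28.2 and 26.0 scaled CPM in LNCaP and 14.7, 17.0 and 18.6 in LNCaP MUC1-C OE (log2 fold change -0.65, adjusted p = 5.66e-06), and HOXA6 gave 13, 13.7 and 14.3 against 8.99, 8.41 and 10.4 scaled CPM in the same order (log2 fold change -0.55, adjusted p = 1.82e-04). At the posterior end HOXA13, which acts in limb and genital tract development, gave 36.4, 42.9 and 38.2 against 25.4, 24.6 and 27.5 scaled CPM (log2 fold change -0.60, adjusted p = 2.87e-06). HOXA10 gave 98.9, 95.9 and 97.6 against 77.3, 86.5 and 84.4 scaled CPM (log2 fold change -0.24, adjusted p = 8.83e-04). In these 4 genes every LNCaP MUC1-C OE library was below every LNCaP library.

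HOXA4 and HOXA7, on either side of HOXA5 and HOXA6, were higher. HOXA4 gave 6.15, 6.23 and 5.04 against 7.23, 7.64 and 8.30 scaled CPM (log2 fold change 0.41, adjusted p = 0.0102) and HOXA7 gave 12.1, 12.2 and 10.9 against 13.7, 14.4 and 14.9 scaled CPM (log2 fold change 0.29, adjusted p = 0.0127). On the opposite strand, HOXA-AS2 and HOXA-AS3 share 16.3% of the exonic bases of HOXA4 and HOXA-AS3 shares 62.5% of those of HOXA7, and AC004080.6 shares 31.0% of HOXA4 on its own strand, so their counts are uncertain in that part. Another 4 HOXA genes were not called. HOXA5 gave 67.7, 62.9 and 69.8 against 61.3, 64.9 and 71.1 scaled CPM (log2 fold change -0.02, interval -0.16 to 0.11), HOXA11, a forelimb gene, 37.3, 41.6 and 38.9 against 36.6, 38.4 and 39.4 scaled CPM (-0.04, -0.18 to 0.10), HOXA2 1.43, 2.22 and 1.82 against 1.49, 1.22 and 1.31 scaled CPM (-0.43, -0.95 to 0.10) and HOXA9, known from leukaemia, 3.89, 4.27 and 3.48 against 3.92, 5.20 and 6.09 scaled CPM (0.39, 0.02 to 0.76, edgeR adjusted p = 0.0559).

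Along the HOXB cluster the lower calls were HOXB3 and HOXB5 and the higher calls HOXB6 to HOXB9. HOXB6 gave 39.3, 41.6 and 39.3 scaled CPM in LNCaP and 57.4, 55.3 and 63.6 in LNCaP MUC1-C OE (log2 fold change 0.56, adjusted p = 8.88e-07) and HOXB7 gave 15.6, 16.5 and 15.9 against 24.7, 24.8 and 22.8 scaled CPM (log2 fold change 0.59, adjusted p = 4.50e-06), a rise of 1.504-fold. HOXB9, the highest HOX gene per length in both groups, gave 176, 214 and 196 against 246, 227 and 249.7 scaled CPM (log2 fold change 0.30, adjusted p = 5.84e-04). These 3 did not overlap between the groups. HOXB8 gave 21.95, 24.3 and 22.5 against 26.5, 24.3 and 29.7 scaled CPM (log2 fold change 0.23, adjusted p = 0.0214), with OE replicate 2 level with LNCaP replicate 2.

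HOXB3 and HOXB5 were the lower HOXB genes. HOXB3 gave 45.6, 40.8 and 40.8 against 30.8, 28.7 and 36.2 scaled CPM (log2 fold change -0.40, adjusted p = 3.18e-04) and HOXB5 gave 16.9, 20.9 and 21.5 against 15.4, 14.7 and 18.0 scaled CPM (log2 fold change -0.29, adjusted p = 0.0209), the latter with overlap. HOXB13 was not called, at 35.8, 34.2 and 30.9 against 33.0, 30.0 and 31.2 scaled CPM (log2 fold change -0.10, interval -0.25 to 0.06). HOXB2 gave 16.5, 18.8 and 16.8 against 18.2, 16.1 and 18.2 scaled CPM (0.01, -0.17 to 0.20) and HOXB4, a gene of blood stem cells, 8.27, 9.13 and 8.31 against 6.69, 7.49 and 9.74 scaled CPM (-0.09, -0.38 to 0.19).

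Of the 6 HOXC genes tested from HOXC6 to HOXC13, all but HOXC9 fell. HOXC13 gave 25.5, 27.7 and 27.4 against 19.9, 17.0 and 18.0 scaled CPM (log2 fold change -0.55, adjusted p = 1.23e-05), HOXC6 27.96, 30.0 and 29.9 against 19.5, 19.9 and 21.0 scaled CPM (log2 fold change -0.54, adjusted p = 5.80e-06) and HOXC8 17.6, 18.4 and 19.2 against 10.5, 13 and 14.4 scaled CPM (log2 fold change -0.54, adjusted p = 2.23e-04). HOXC10 gave 53.9, 62.0 and 58.0 against 46.3, 39.3 and 38.7 scaled CPM (log2 fold change -0.48, adjusted p = 2.09e-05) and HOXC11 17.0, 19.9 and 19.99 against 16.8, 13.4 and 15.2 scaled CPM (log2 fold change -0.32, adjusted p = 0.00856). None of these 5 overlapped between the groups. HOXC9 was not called, at 24.96, 24.6 and 22.5 against 21.8, 22.9 and 25.5 scaled CPM (log2 fold change -0.03, interval -0.21 to 0.14). HOXC4, at the other end of the cluster, rose, at 30.1, 35.2 and 31.4 against 43.6, 38.3 and 43.2 scaled CPM (log2 fold change 0.38, adjusted p = 3.02e-04), and HOXC5, at 18 to 50 counts a library, gave 1.53, 2.27 and 1.76 against 2.10, 1.38 and 2.99 scaled CPM (0.25, -0.30 to 0.81). HOXC4 and HOXC6, which share a transcript start, moved in opposite directions.

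The HOXD genes that were called all rose. HOXD13, the last gene of the cluster and a digit-patterning factor, gave 50.8, 48.5 and 47.1 scaled CPM in LNCaP and 68.8, 70.0 and 68.8 in LNCaP MUC1-C OE, without overlap (log2 fold change 0.50, SE 0.06, adjusted p = 4.60e-07). HOXD10 gave 25.7, 22.8 and 25.4 against 33.8, 30.7 and 30.5 scaled CPM (log2 fold change 0.36, adjusted p = 4.97e-04), also without overlap. HOXD8 gave 4.53, 4.54 and 5.92 against 7.77, 7.34 and 5.62 scaled CPM (log2 fold change 0.46, adjusted p = 0.0166) and HOXD9 7.93, 6.70 and 6.96 against 10.6, 7.87 and 9.74 scaled CPM (log2 fold change 0.39, adjusted p = 0.0129), both with overlap. HOXD11, between the called genes, gave 21.8, 26.7 and 23.7 against 28.1, 24.9 and 27.3 scaled CPM (log2 fold change 0.16, interval -0.02 to 0.34) and was not called. HOXD10 and HOXD11 overlap in exons on the same strand by 16.8% and 21.4% of their exonic bases. AC009336.2 shares 62.2% of the exonic bases of HOXD3 and 80.5% of those of HOXD4 on the same strand. On the opposite strand, genes that include HAGLR share 14.6% of HOXD3. Counts of these members are uncertain in the shared parts. HOXD3 and HOXD4, the lowest-numbered HOXD genes tested, were not called and gave 2.26, 2.48 and 2.08 against 1.89, 2.45 and 1.91 scaled CPM (-0.14, -0.58 to 0.30) and 3.30, 2.53 and 3.11 against 3.92, 3.82 and 3.35 scaled CPM (0.30, -0.07 to 0.67).

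**Figure D4:**
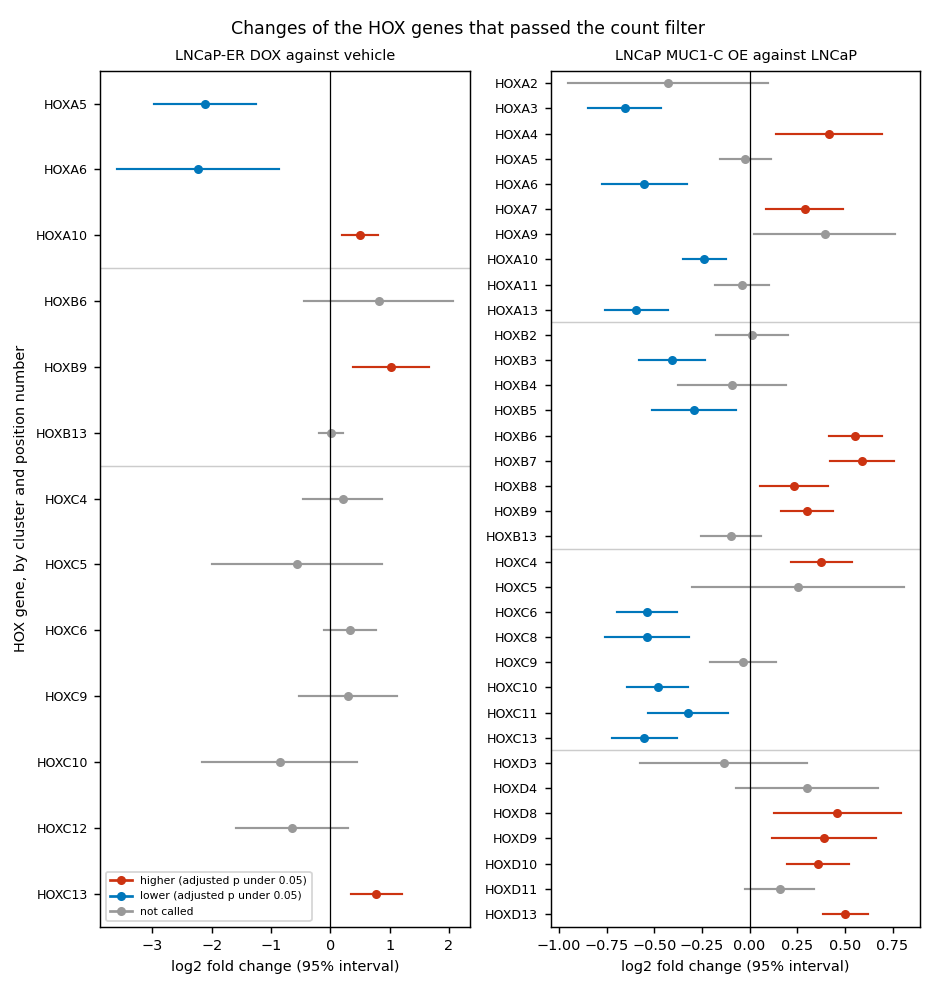
log2 fold change (points) with its 95% interval (lines) of the HOX genes that passed the count filter, 13 in the silencing experiment and 34 in the overexpression experiment (1 member is not drawn), by cluster and position number. In the overexpression panel 5 of 8 HOXC genes are called lower, and the 4 called HOXD genes are all higher.

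By position, the 6 anterior members tested in the overexpression experiment had 0 higher and 3 lower calls, the 15 central members 7 and 4, and the 14 posterior members 4 and 5. The shares over all genes were 33.2% higher and 34.1% lower. Whether the splits by position or cluster differ from those shares was not tested. Genes of the same number in different clusters are paralogues, the most alike in sequence, and of 11 paralogue groups with at least 2 members tested, 4 (numbers 6, 8, 10 and 13) had calls in both directions. No matching share over all genes was computed for such groups. In group 13, HOXA13 and HOXC13 were lower, HOXD13 was higher and HOXB13 was not called. Dividing by library totals in place of TMM shifted the median of all genes by -0.16, and then 22 members were called, 6 higher and 16 lower. The 6 higher were HOXB6, HOXB7, HOXB9, HOXC4, HOXD10 and HOXD13, so HOXA4, HOXA7, HOXB8, HOXD8 and HOXD9 were not called higher on that scale. HOXA2, HOXA5, HOXA11 and HOXB13 were called lower on it, HOXB13 at -0.25 (edgeR adjusted p = 0.00613).

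Without each library in turn, 19 to 22 members were called, and 16 of the 23 calls held in all 6 fits. HOXB8 lost its call without LNCaP replicate 1 or 3 or OE replicate 3, HOXD8 without LNCaP replicate 1 or 2 or OE replicate 1, HOXB5 without LNCaP replicate 2 or 3 or OE replicate 2, and HOXD9 without LNCaP replicate 2 or OE replicate 1. HOXA4 and HOXA7 lost theirs without LNCaP replicate 3, and HOXC11 without OE replicate 2. The largest adjusted p among these was 0.126, for HOXB8.

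The 2 experiments were set side by side for the 13 members tested in both. HOXA6 was lower in both, at -2.23 and -0.55 on the log2 scale, and HOXB9 was higher in both, at 1.02 and 0.30. HOXA10 (0.50 and -0.24) and HOXC13 (0.78 and -0.55) were higher in the libraries labelled DOX and lower in LNCaP MUC1-C OE. HOXA5, at -2.11 in the former, gave -0.02 in the latter. HOXB13 was called in neither with TMM scaling. Of the 4 members called in both experiments, 2 thus had the same direction and 2 the opposite one. The manipulations of MUC1-C were opposite by their labels. MUC1 in DOX replicate 2 (42 counts) was, however, above the vehicle libraries (26, 10 and 13 counts). Each of the 4 members also lost its silencing call in some of the fits that left out a library. Of all genes tested, 27.3% were called in the silencing experiment and 67.3% in the overexpression experiment. The share of all genes called in both was not counted, so the 4 members and their split are not set against it. The differences between the experiments themselves were not tested.

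HOX proteins bind DNA with TALE cofactors, the PBX, MEIS and PKNOX proteins. The list counted here as cofactors also held TGIF1 and TGIF2, TALE genes outside those families. Of 10 cofactor genes tested in the silencing experiment, 0 rose and 2 fell: PKNOX2 (log2 fold change -1.39, adjusted p = 0.00891) and TGIF2 (-0.79, adjusted p = 0.0187), where 27.3% of all genes were called (12.8% higher and 14.5% lower). Of 11 tested in the overexpression experiment, 5 rose and 0 fell, where 67.3% of all genes were called (33.2% higher and 34.1% lower), and both of those genes were among the 5, PKNOX2 at 0.68, adjusted p = 5.48e-06. Neither share of cofactors called was above that of all genes. MEIS2 rose by 0.81, adjusted p = 1.34e-08 and PBX4 by 1.01, adjusted p = 0.00420. The median was -0.16 and 0.20, against -0.02 and -0.01 over all genes. Divided by library totals, the overexpression calls became 4 higher and 3 lower. On the deposited TPM, which moved the median of all genes in the silencing experiment to 0.45, 2 cofactors were called, both higher. Without each library in turn, 1 to 4 cofactors were called in the silencing experiment (4 without DOX replicate 2, and 1 without vehicle replicate 2 or 3 or DOX replicate 1 or 3) and 5 to 7 in the overexpression experiment.

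The non-coding genes of the clusters were all lower where they were called in the overexpression experiment. Of 14 tested, 10 fell and 0 rose, where 67.3% of all genes were called and 34.1% called lower, so the share called in either direction was near that of all genes. Their median was -0.98, against -0.01 over all genes, and 10 fell and 0 rose on library totals too. With at least 10 counts required in every library 6 were called, all lower. HAGLR, which lies opposite HOXD1 and HOXD3, gave 11.1, 13.5 and 12.3 CPM on library totals in LNCaP and 0.0639, 0 and 0.284 in LNCaP MUC1-C OE, where it had at most 5 counts (log2 fold change -6.37, adjusted p = 9.50e-12). HOXB-AS3, opposite HOXB3, HOXB5 and HOXB6, gave 63.5, 78.3 and 68.7 CPM and then 12.3, 11.6 and 12.7 (-2.37, adjusted p = 2.92e-13). The HOX genes across from these transcripts did not move alike: HOXB3 and HOXB5 fell and HOXB6 rose, and HOXD3 was not called. HOXD1 did not pass the filter and was not tested. It had 3, 7 and 6 counts in LNCaP and 0, 0 and 0 in LNCaP MUC1-C OE.

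HOTAIRM1, a transcript of the HOXA cluster, gave 32.9, 34.1 and 33.4 CPM in LNCaP and 17.1, 17.6 and 18.8 in LNCaP MUC1-C OE (-0.75, adjusted p = 8.71e-08). HOXA11-AS gave 12.96, 14.8 and 16.6 and 7.09, 7.32 and 6.03 CPM (-0.97, adjusted p = 1.78e-06), while HOXA11 itself had an interval of -0.18 to 0.10. For these 4 no LNCaP MUC1-C OE library reached any LNCaP library. Whether reads of the opposite strand entered these counts was not tested. Leaving out 1 library left 8 to 10 calls, all lower. In the silencing experiment 5 non-coding genes were tested and 0 were called by edgeR, with 2 at an unadjusted p under 0.05, HOXC13-AS at 1.25, adjusted p = 0.0527 and HAGLR at -1.40, adjusted p = 0.119. DESeq2 called 1 of them, as did edgeR on library totals, and 2 were called without DOX replicate 2 (1 higher and 1 lower). The 6 microRNA genes of the clusters that were listed had at most 5 counts in any library.

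**Figure D5:**
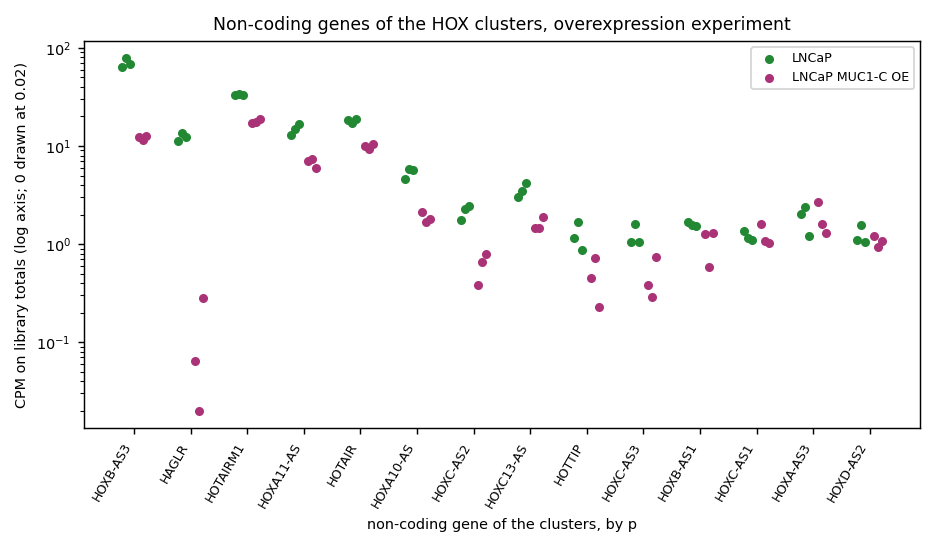
CPM on library totals (log axis, 0 drawn at 0.02) of the 14 non-coding genes of the HOX clusters tested in the overexpression experiment, for each of the 3 LNCaP and 3 LNCaP MUC1-C OE libraries, ordered by p. The 10 called genes are the leftmost, and HAGLR shows the widest gap, from 11.1 or more to 0.284 or less.

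Genes that flank the clusters were tested as well. In the silencing experiment 0 of 13 rose and 3 fell: HNRNPA1, a splicing factor beside HOXC (-0.65, adjusted p = 0.00225), HNRNPA3, its relative beside HOXD (-0.50, adjusted p = 0.0352), and TTLL6 beside HOXB (-0.59, adjusted p = 0.0475), where 27.3% of all genes were called. Both HNRNPA genes have pseudogene copies, so their counts are uncertain. With MUC1-C overexpression 2 of 12 rose and 8 fell, where 67.3% of all genes were called and 34.1% called lower. HNRNPA1 rose by 0.59, adjusted p = 6.12e-07, and SKAP2 beside HOXA fell (-0.71, adjusted p = 4.36e-09), as did TTLL6 (-2.09, adjusted p = 1.20e-06) and CALCOCO1 beside HOXC (-0.59, adjusted p = 5.19e-06). On the deposited TPM, which also raised the median of all genes, 4 neighbours were called after DOX, all higher. The silencing count was 1 on library totals and 1 without any single vehicle library or DOX replicate 3, 2 without DOX replicate 1 and 4 without DOX replicate 2.

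Called trithorax and elongation factors moved both ways after DOX and, with TMM scaling, were more often higher than lower with MUC1-C overexpression. Of 16 tested in the silencing experiment, 2 rose and 4 fell, with PSIP1, a chromatin tether of the MLL complex, at -0.79, adjusted p = 0.00161, KDM6A at -0.58, adjusted p = 0.00523, KMT2A, the MLL methyltransferase, at -0.45, adjusted p = 0.0104, and AFF1, an elongation factor, up by 0.59, adjusted p = 0.00780. The share of all genes called was 27.3% there and 67.3% with MUC1-C overexpression (33.2% higher), where 10 of the 16 rose and 2 fell, led by MLLT10 (1.25, adjusted p = 8.12e-12), RBBP5 (0.93, adjusted p = 7.41e-11), DOT1L (0.97, adjusted p = 1.78e-09) and KMT2B (0.63, adjusted p = 6.90e-08). On library totals the split of the latter was 7 and 6. On the deposited TPM, which also raised the median of all genes, the silencing split was 7 higher and 0 lower.

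With TMM scaling, called Polycomb genes were mostly lower after DOX and mostly higher with MUC1-C overexpression. The direction after DOX turned on the deposited TPM (7 higher and 0 lower), which also raised the median of all genes. Of 27 tested in the silencing experiment, 1 rose and 9 fell, where 27.3% of all genes were called (14.5% lower): EZH2, the H3K27 methyltransferase (-0.85, adjusted p = 0.00206), PHC3 (-0.83, adjusted p = 0.00226) and JARID2 (-0.50, adjusted p = 0.00551) fell and CBX6 rose (0.55, adjusted p = 0.00331). With overexpression, 15 rose and 5 fell, where 67.3% of all genes were called (33.2% higher), with JARID2 at 0.88, adjusted p = 8.44e-10, EZH1 at 0.90, adjusted p = 4.22e-09, MTF2 at 0.57, adjusted p = 5.72e-08 and RNF2 at 0.64, adjusted p = 8.84e-08. On library totals the splits were 1 and 7, and 11 and 7. Leaving out 1 library gave 5 to 11 and 18 to 22 calls, with 5 in the silencing experiment without vehicle replicate 3. The medians were near those of all genes in the silencing experiment (-0.05 against -0.02) and at 0.19 in the overexpression experiment.

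Retinoic acid switches on anterior HOX genes in the embryo, and of 17 genes tested in the overexpression experiment that make, break down or sense it or encode caudal factors, 2 rose and 9 fell, where 67.3% of all genes were called, so the share called was near that of all genes. The retinal dehydrogenases ALDH1A2 (-2.33, adjusted p = 1.13e-12) and ALDH1A3 (-4.45, adjusted p = 1.13e-11), the receptor RXRG (-2.25, adjusted p = 4.52e-08) and the degrading enzyme CYP26B1 (-1.46, adjusted p = 1.69e-07) led this list. In the silencing experiment, 2 of 9 rose, ALDH1A3 (0.63, adjusted p = 0.00585) and RXRA (0.56, adjusted p = 0.0298), and 2 fell, RARA (-0.43, adjusted p = 0.0393) and RXRB (-0.33, adjusted p = 0.0436), where 27.3% of all genes were called. The silencing count fell to 2 on library totals and on the deposited TPM, all higher, and lay between 1 and 5 when single libraries were left out, at 2 without vehicle replicate 1, at 5 without DOX replicate 2 and at 1 without each of the others.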

How the data were processed

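RNA-Seq (RNeasy extraction, TruSeq Stranded mRNA libraries) was analysed for 12 libraries, 3 in each of 4 groups assigned from the labels. The deposited tables hold raw counts per gene made by the authors for both experiments and, for the silencing experiment, the authors' TPM values. The submitters' processing notes name STAR, DESeq2 and GRCh38 (hg38), and the counting tool, annotation and strand setting are not given in the sources used here. A further 12 columns of other cell lines were not used. Columns of the overexpression controls are named vector where the labels say wild-type.

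Each experiment's 6 libraries were fitted alone in edgeR 4.0.16 under R 4.3.3. Settings were TMM scaling, filterByExpr, a robust quasi-likelihood fit, and Benjamini-Hochberg adjustment over all genes at a threshold of 0.05. The design was run on simulated data with the same dispersion for every gene and no outlying library. That simulation does not show how the calls hold in libraries that differ as these do. SEs and 95% intervals were derived from the edgeR fit. Lengths were implied by the deposited counts and TPM of the silencing experiment and were used for both experiments. A fold against a gene with at most 3 counts in every library used 3 counts per library as the floor. Such limits cover counting error only. Alternatives were DESeq2 1.42.0, limma 3.58.1 on log2(TPM + 1) or log2(TPM + 0.1), other scalings and filters, a replicate block, and leaving out each library. Libraries of one group differed by more than counting noise in a chi-square test over genes (2.27 or more for each degree of freedom). Members that passed the filter were described with their tests, apart from some items that are counted in the totals but not reported here, and from each related list at most 4 genes past the threshold with the smallest p. PRAC1, HOXA-AS3 and, in the silencing experiment, HOXC13-AS and HAGLR were named after their values were seen. The members and lists were chosen with earlier results of these data known. Promoter windows are from RefSeq, exon overlaps from GENCODE. No promoter window was used for HOXB13, HOXA5, HOXB9, HOXC6 or HOXC13.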

Additional observations from a re-analysis of the deposited data

How the results depend on the processing

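In the silencing experiment 5 HOX genes were called with DESeq2, with median-of-ratios factors, on library totals and without a filter, and 4 with at least 10 counts in every library. Requiring a log2 change of 1 or more left 3, while log2(TPM + 0.1) with a filter gave 8 and log2(TPM + 1) without a filter gave 2. On log2(TPM + 1) with a filter there were 7, among them HOXB13 and HOXC6, and HOXC4 was called on log2(TPM + 0.1) as well (0.79, limma adjusted p = 0.0489). Leaving out single libraries gave 1 to 8. In the overexpression experiment 23 were called with DESeq2, 22 on library totals and 25 without a filter, 1 with a log2 change of 1 or more, and 19 to 22 without single libraries. The cause of these differences was not tested, apart from the stricter rule of the fold limit.

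Signs turned in members that were not called with the design as described. In the silencing experiment the log2 fold change of HOXC5 ran from -1.002 to 0.570, that of HOXC4 from -0.0363 to 0.589 and that of HOXB13 from -0.00829 to 0.0506 without single libraries, and HOXC5 was at 0.0454 on unfiltered log2(TPM + 1). In the overexpression experiment HOXB2 was at -0.14 on library totals and -0.0151 with at least 10 counts in every library. Without single libraries HOXB2 ran from -0.0214 to 0.0774, HOXA11 from -0.0755 to 0.00500, HOXA5 from -0.0747 to 0.0285, HOXB4 from -0.265 to 0.0261, HOXC9 from -0.0939 to 0.0171 and HOXC5 from -0.0647 to 0.481.

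Whether replicate numbers pair the samples is not stated. Correlations of same-numbered deviations from the group means were 0.170, 0.0414 and -0.0989 in the silencing experiment. They were -0.0400, -0.212 and -0.0406 in the overexpression experiment. Deviations from the mean of so few libraries depend on each other, so these correlations cannot decide whether samples were paired. A fit with the replicate number as a block called 5 and 23 HOX genes, and not every library correlated best with its own number. The filter left 25 members untested in the silencing experiment, and a fall of HOXD genes from near 0 counts was not detectable there.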
